A study of Canis lupus familiaris with 2 samples.

Results

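The heat shock and chaperone genes were taken by symbol from the FPKM values of MDCK cells, a line of columnar epithelium established from dog kidney. A member was any gene whose symbol starts with HSPA, HSPB, HSPH, HSP90 or DNAJ, or with CCT and a digit, or is HSPD1, HSPE1, HSF1, HSF2 or TCP1. The rule found 83 genes among the 23510 listed. The cells grew on a semipermeable membrane in EMEM containing serum, under a column of medium that was either 2 or 50 cm high, and the height set the static pressure on them. The labels place both cultures at day 3 after plating, and the cultures are called 2 cm and 50 cm here. Where a pair of FPKM values is given, the 2-cm culture comes first. RNA was sequenced from 1 culture at each height, so none of the values has a replicate, no gene was tested, and every ratio describes these 2 cultures only. Differences in handling or library between the cultures cannot be told apart from the height of the medium.

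Chaperones bind unfolded proteins and let them fold without clumping. In the cytosol, newly made chains meet Hsp70, which works with J proteins (DNAJ genes) that bring it clients and Hsp110 proteins that exchange its nucleotide. Hsp90 then acts on signalling proteins such as kinases and steroid receptors, and the ring-shaped TRiC complex folds actin and tubulin. Small Hsps hold unfolded proteins without using ATP and are linked to the actin and keratin cytoskeleton. The endoplasmic reticulum (ER) and the mitochondria have their own Hsp70 and J proteins. In mitochondria the HSPD1 and HSPE1 chaperonin completes folding. The factor HSF1 switches on many of these genes when proteins unfold, whereas unfolded protein in the ER signals through a separate set of sensors.

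All 6 epithelial markers examined (CDH1, EPCAM, KRT8, KRT18, OCLN and CLDN4) lay above 1 FPKM in both cultures, as did the kidney tubule factors PAX2 and PAX8, but not CDH16 or LHX1. None of 5 fibroblast and 4 endothelial markers did, and CD14 was the only leukocyte marker of 4 that did. FPKM is the count of fragments on a gene scaled to its length and to the size of the library, which lets levels be compared between genes but hides the number of reads. Among the lowest values, the FPKM step of a read was 9.77% larger at 50 cm than at 2 cm, and the depth itself is unknown.

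Nearly all members above 100 FPKM in both cultures were higher at 50 cm, whereas those at lower levels went either way. Of the 83 members, 66 lay above 1 FPKM in both cultures, 9 were detected at lower levels and 8 were listed at 0 in both. Among the 66, 42 (63.6%) were higher at 50 cm and 24 were lower, beside 52.6% higher among all 11057 features that passed the same minimum. The median ratio of 50-cm over 2-cm FPKM was 1.088 for the members and 1.01 for all features. Large changes were rare. HSPB1 was the only member above 2-fold or above 1.5-fold (0.389% and 2.13% of all features), and DNAJC12 was the only member below a ratio of 1/2 or 1/1.5 (1.28% and 5.06% of all features). At a lower mark of 1.2-fold, chosen after the ratios had been seen, 19 members (28.8%) were above it, beside 15.0% of all features, and 5 members (7.58%) were below 1/1.2, beside 16.9%. The first of these counts depended on the scaling. After quantile normalization, which forces the cultures to 1 distribution of values, 11 members (16.7%) were above 1.2-fold, beside 16.0% of all features.

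**Figure D1:**
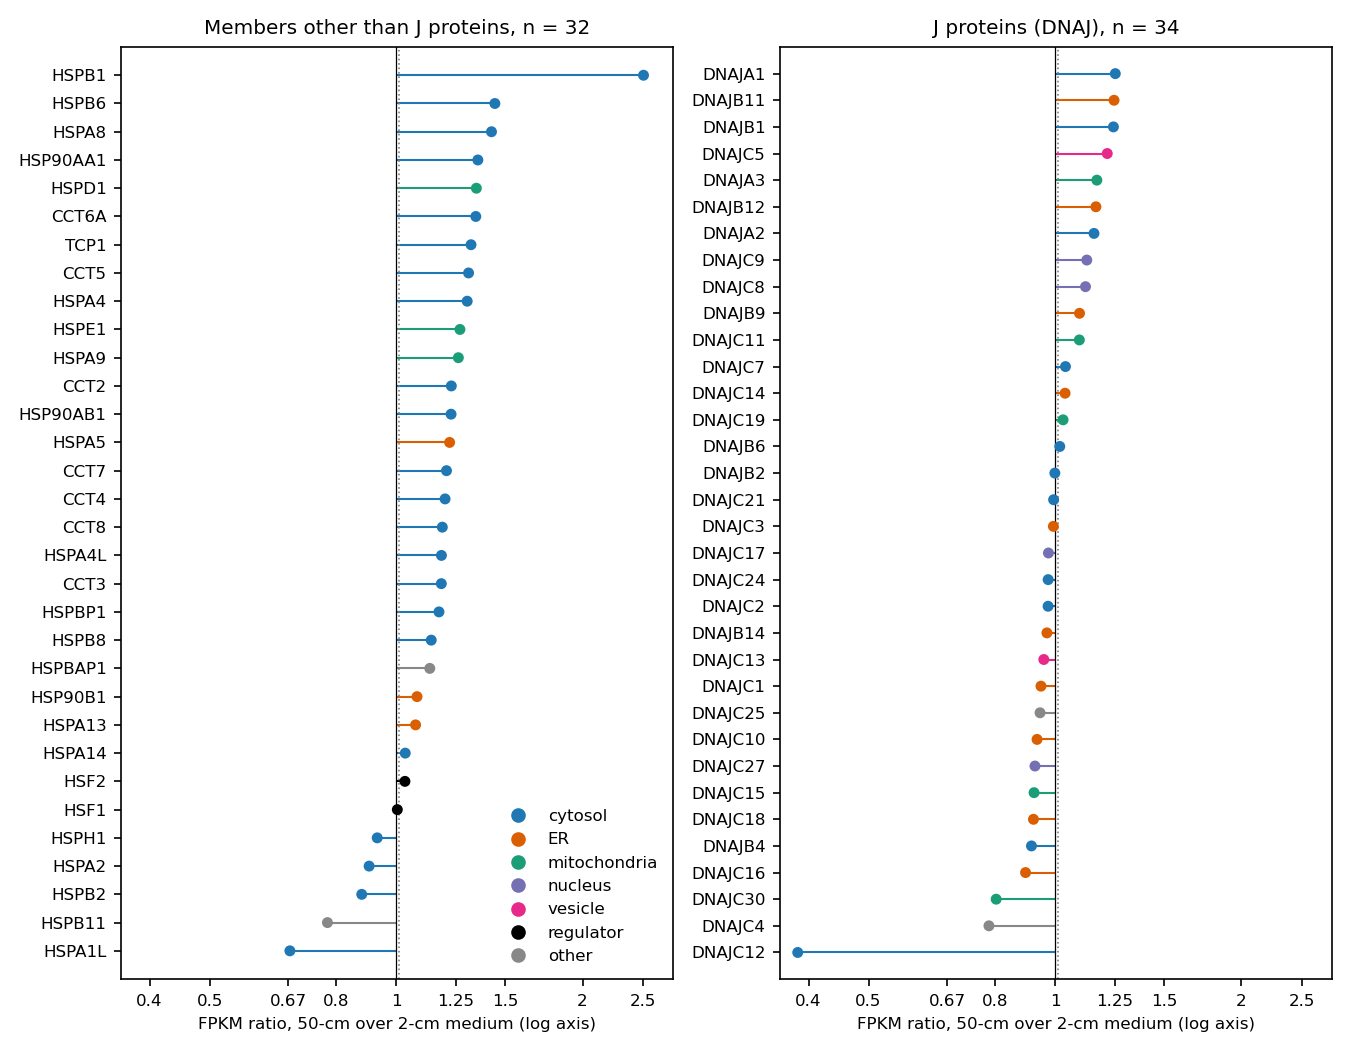
Ratio of 50-cm over 2-cm FPKM for the 66 members above 1 FPKM in both cultures, with 1 point per gene on a log axis, coloured by compartment, the solid line at 1 and the dotted line at the median of all features (1.01). Of the 32 members that are not J proteins 27 lie right of 1, from HSF1 to HSPB1 at 2.51, whereas the 34 J proteins spread on both sides, 15 above and 19 below 1.

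The members also differed by level of expression, which overlaps with family. The only J proteins above 100 FPKM in both cultures were DNAJA1, DNAJC8 and DNAJC19, and level and family were not separated. Above 100 FPKM in both cultures, 20 of 21 members were higher at 50 cm, with HSPH1 the exception, and 14 of them (66.7%) passed 1.2-fold. After quantile normalization 19 of the 21 were higher, DNAJC19 joined HSPH1 on the lower side, and 8 (38.1%) passed 1.2-fold, beside 8.37% of all features above 100 FPKM. Among all 896 features above 100 FPKM, 609 were higher at 50 cm, and 451 after quantile normalization. As deposited, 12.9% of the 896 passed 1.2-fold and their median ratio was 1.046, against 1.228 for the 21 members. The other 45 members, at or below 100 FPKM in at least 1 culture, had a median ratio of 0.9993, with 22 higher and 23 lower, and 5 of them (11.1%) passed 1.2-fold beside 15.2% of all features at such levels. The mark of 100 FPKM was set after the levels had been seen.

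**Figure D2:**
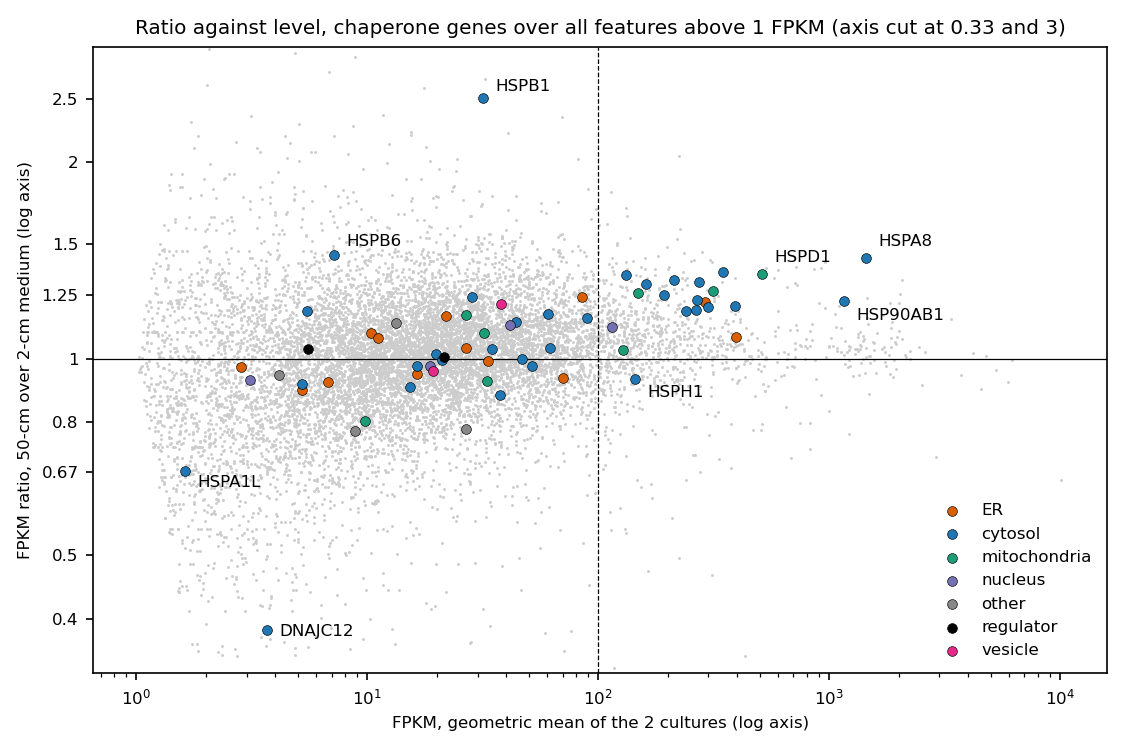
Ratio of 50-cm over 2-cm FPKM against the geometric mean FPKM, both on log axes, for members (coloured by compartment) and all other features above 1 FPKM in both cultures (grey), with a dashed line at 100 FPKM. Right of that line all members but HSPH1 lie above 1, and left of it they lie on both sides. HSPB1 and DNAJC12 stand farthest from 1.

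HSPA8, the constitutive cytosolic Hsp70, was the most abundant member and the one with the largest absolute difference. Its FPKM value was 1207 at 2 cm and 1721 at 50 cm, a ratio of 1.43, and 98.6% of the 500 features nearest to it in level had a lower ratio. HSPA8 alone made up 15.57% of the summed FPKM of the 66 members at 2 cm and 17.97% at 50 cm. HSPA8 has many processed copies in mammalian genomes, and how the mapping treated reads shared with them is not given in the sources used here. The other cytosolic Hsp70 genes were far lower, and those above the minimum had ratios from 0.674 to 1.035. HSPA14, a ribosome-associated relative, had 34.1 and 35.3 FPKM at 2 cm and 50 cm, and HSPA2 had 16.1 and 14.5 FPKM. HSPA1L had 1.97 and 1.33 FPKM, a ratio of 0.674. HSPA12A and HSPA12B lay below 0.1 FPKM. The ratio of HSPA12A was the one that 2 reads at 2 cm and 1 read at 50 cm give, and that of HSPA12B the one given by 1 read in each. The symbols HSPA1A and HSPA6 of the heat-inducible forms were not among the members. The gene listed as HSP70, for which the RefSeq table of dog assembly UU_Cfam_GSD_1.0 gives the synonym HSPA1, falls outside the symbol rule and had 1.85 and 2.17 FPKM.

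The Hsp110 exchange factors did not share a direction. HSPA4 had 141 FPKM at 2 cm and 184 FPKM at 50 cm, a ratio of 1.303. HSPA4L was weakly expressed, at 5.05 and 5.98 FPKM (ratio 1.18). HSPH1 had 149 and 139 FPKM, a ratio of 0.932, and so was the only member above 100 FPKM that was lower at 50 cm. HSPH1 is a classical HSF1 target. Of the 500 features nearest in level, 16.2% had a ratio below that of HSPH1 and 92.8% of the features nearest to HSPA4 had a ratio below that of HSPA4. The level of HSPA8 was 8.096 times that of HSPH1 at 2 cm and 12.38 times at 50 cm. HSPBP1, which starts with HSPB but encodes another nucleotide exchange factor of Hsp70, had 56.0 and 65.6 FPKM, a ratio of 1.17.

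Both cytosolic Hsp90 genes were higher at 50 cm, the less abundant form by more. HSP90AB1, the constitutive form, had 1047 and 1285 FPKM, a ratio of 1.23. HSP90AA1, the form that heat induces, had 297 and 403 FPKM, a ratio of 1.36, and 95.8% of the 500 features nearest in level had a lower ratio. The level of HSP90AB1 was 3.524 times that of HSP90AA1 at 2 cm and 3.189 times at 50 cm. The genes are close in sequence, and reads that fit both could have been divided between them. Among 19 co-chaperones of cytosolic Hsp70 and Hsp90 that lie outside the symbol rule, 15 were higher and 4 lower, with a median ratio of 1.096. Past 1.2-fold were 7 (36.8%), beside 15.0% of all features. After quantile normalization 13 were higher and 6 lower, and 5 (26.3%) passed 1.2-fold, beside 16.0% of all features. None passed 1.5-fold. The highest ratio was that of BAG2, an exchange factor and inhibitor of STUB1, with 10.9 and 15.2 FPKM (1.40). The lowest was that of STUB1 itself, the ubiquitin ligase that tags Hsp70 clients, with 51.9 and 47.5 FPKM (0.916). FKBP4, the immunophilin of steroid receptor complexes, had 170.1 and 234 FPKM (1.37), and AHSA1, the activator of the Hsp90 ATPase, had 82.0 and 110.1 FPKM (1.34).

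All 8 subunits of the TRiC ring were higher at 50 cm, with ratios from 1.183 to 1.345, beside 609 of the 896 features above 100 FPKM. All 8 remained higher after recentring on the median of all features and after quantile normalization. Past 1.2-fold were 5 subunits (62.5%), and 3 (37.5%) after quantile normalization, beside 12.9% and 8.37% of features above 100 FPKM. The share of the 500 features nearest in level with a lower ratio ran from 81.8% for CCT3 to 95.4% for CCT6A. CCT6A had the highest ratio, with 114 FPKM at 2 cm and 153 FPKM at 50 cm. TCP1, the alpha subunit, had 185 and 244 FPKM (1.32), and CCT5 had 239 and 313 FPKM (1.31). CCT2 had 242 and 297 FPKM (1.23), CCT7 had 356 and 430 FPKM (1.21), and CCT4 had 272 and 326 FPKM, a ratio of 1.1998. The smallest ratios were those of CCT8, with 242 and 288 FPKM (1.19), and CCT3, with 219.8 and 260.1 FPKM (1.18). The 8 subunits stand at equal numbers in the ring, and their FPKM values averaged 234 ± 69.3 at 2 cm and 289 ± 78.6 at 50 cm (SD across 8 subunits, not across cultures). The highest subunit, CCT7, had 3.137 times the level of the lowest, CCT6A, at 2 cm and 2.813 times at 50 cm. CCT6B, a testis form of CCT6A, lay below the minimum with 0.802 and 0.401 FPKM, and CCT8L2 was listed at 0 in both cultures.

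The prefoldin complex, which hands actin and tubulin to TRiC, lies outside the symbol rule. Of its 9 listed subunits and relatives, 6 were higher and 3 lower, beside 52.6% higher among all features. The median ratio was 1.129, and 2 (22.2%) passed 1.2-fold, beside 15.0% of all features. PFDN2 had the highest ratio (94.4 and 124 FPKM, 1.32) and PFDN1 the lowest (56.8 and 49.7 FPKM, 0.876). The ratios of the prefoldin genes therefore spread more widely than those of the TRiC subunits. These sets also differed in level. All TRiC subunits above the minimum exceeded 100 FPKM, whereas most of the prefoldin genes did not, with URI1 at 13.8 and 15.8 FPKM. Whether level accounts for the wider spread was not tested.

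**Figure D3:**
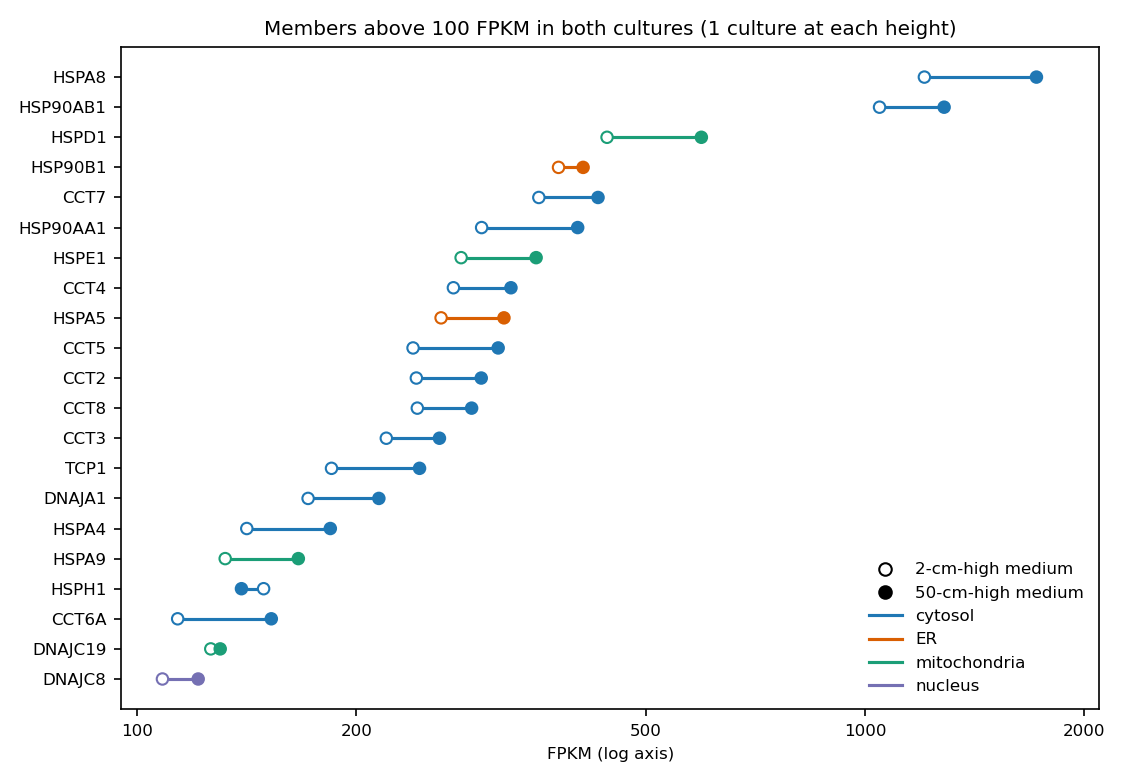
FPKM of the 21 members above 100 FPKM in both cultures, on a log axis, with the 2-cm-high-medium culture as an open and the 50-cm-high-medium culture as a filled point, 1 culture each. The filled point lies to the right for 20 genes and to the left for HSPH1, and the line is longest for HSPA8.

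Among the small Hsps, HSPB1 (Hsp27) had the largest ratio of any member. It had 20.1 FPKM at 2 cm and 50.3 FPKM at 50 cm, a ratio of 2.51, which placed it at rank 15 of 11057 features. Hsp27 can cap actin filaments and so limit their growth. The ratio of HSPB1 lay within 0.002% of that given by 7 reads in the 2-cm and 16 reads in the 50-cm culture, or by any multiple of these. Of all features above 1 FPKM, 4.76% lay as near to a ratio of at most 25 reads in each culture, so the match does not give the number of reads behind it. In both deposited tables HSPB1 stands out of the alphabetical order of symbols, among genes that start with F, and so do DNAJB5, DNAJB7, DNAJB13 and DNAJC12. Their values could not be checked against reads here. HSPB6, also called Hsp20, had 5.97 and 8.61 FPKM (1.44), and 97.2% of the 500 features nearest in level had a lower ratio. HSPB8, a partner of BAG3, had 41.2 and 47.0 FPKM (1.14), and HSPB2 had 39.9 and 35.1 FPKM (0.88). HSPB9 lay below the minimum with 0.368 and 0.404 FPKM, and HSPB3 and HSPB7 were listed at 0.

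CRYAB, a small Hsp whose symbol the rule does not match, was more abundant than any of the HSPB genes, with 249 and 286 FPKM and a ratio of 1.15. Its level was 12.42 times that of HSPB1 at 2 cm and 5.685 times at 50 cm. CRYAB and HSPB2 are neighbours in the RefSeq table of the other dog assembly, and their ratios lay on opposite sides of 1. Other symbols with the same prefix belong to other families. HSPB11, a part of the transport machinery of cilia, had 10.1 and 7.82 FPKM (0.775), and HSPBAP1, which binds Hsp27, had 12.5 and 14.1 FPKM (1.13).

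The J proteins differed from the chaperones they serve in that most ratios lay close to 1. Of the 44 DNAJ genes, 34 passed the minimum, 15 of them were higher and 19 lower, and the median ratio was 0.9942. The median of the 32 other members was 1.194, with 27 higher and 5 lower. These 32 span several families, and the 7 Hsp70 genes among them, with which J proteins work, had a median of only 1.075. Of those 7 genes, 5 were higher and 2 lower. Past 1.2-fold were 15 of the 32 (46.9%) and 4 of the 34 J proteins (11.8%), beside 15.0% of all features. After quantile normalization these counts were 11 and 0. The differences between these medians were not tested.

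The 4 J proteins past 1.2-fold were DNAJA1, DNAJB1, DNAJB11 and DNAJC5. DNAJA1, the most abundant J protein gene and a main partner of HSPA8, had 172 and 215 FPKM (1.251). DNAJB1 (Hsp40), which heat induces, had 25.6 and 31.8 FPKM (1.24). DNAJC5, the cysteine string protein of secretory vesicles, had 34.6 and 42.0 FPKM (1.21). The level of DNAJA1 was 6.712 times that of DNAJB1 at 2 cm and 6.759 times at 50 cm. DNAJA2, a close relative of DNAJA1, had 83.4 and 96.4 FPKM (1.16).

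DNAJC12 had the smallest ratio of any member. It had 5.92 FPKM at 2 cm and 2.28 FPKM at 50 cm, a ratio of 0.384, and 0.8% of the 500 features nearest in level had a lower one. DNAJC12 helps fold the aromatic amino acid hydroxylases. Its ratio is the one given by 20 reads against 7 or a multiple. DNAJB5 and DNAJB7 also had ratios under 1/2 (0.477 and 0.494) but lay below 1 FPKM at 50 cm, DNAJB5 going from 1.22 to 0.584 FPKM and DNAJB7 from 1.27 to 0.63 FPKM. DNAJB13 was detected at 2 cm alone, at 0.265 FPKM. DNAJC4, which was not placed in any compartment, had 30.2 and 23.6 FPKM, a ratio of 0.782. Of the 500 features nearest in level, 5.2% lay below it. The remaining cytosolic J proteins above the minimum, among them DNAJB2, DNAJB6, DNAJC7 and the ribosome-bound DNAJC2, had ratios between 0.916 for DNAJB4 and 1.04 for DNAJC7. DNAJB8, DNAJC28, DNAJC5B, DNAJC5G and DNAJC6 were listed at 0 in both cultures.

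In the ER, the most abundant soluble chaperones were higher at 50 cm, but the ER members together lay near the share of all features. Of the 7 soluble ER members 5 were higher and 2 lower, and of the 6 J proteins bound to the ER membrane 2 were higher and 4 lower. All 13 ER members passed the minimum, with 7 higher (53.8%) and 6 lower, beside 52.6% higher among all features. Their median ratio was 1.038, beside 1.01 for all features, and none passed 1.5-fold. Past 1.2-fold were 2 of them (15.4%), beside 15.0% of all features. HSPA5 (BiP), the Hsp70 of the ER, had 261 and 319 FPKM (1.22), and 87.0% of the 500 features nearest in level had a lower ratio. DNAJB11, a J protein partner of BiP, had 76.1 and 94.8 FPKM (1.245), the highest ratio in the ER. HSP90B1 (GRP94) was the most abundant ER member, with 379 and 410 FPKM. It had a smaller ratio, 1.08, and 60.4% of the 500 features nearest in level had a lower one. The level of BiP was thus 0.69 times that of GRP94 at 2 cm and 0.778 times at 50 cm. HSPA13, a further Hsp70 relative of the ER, had 10.8 and 11.6 FPKM (1.08). DNAJB9, which holds the sensor IRE1 in check, had 9.86 and 10.8 FPKM (1.095), and DNAJC3, an inhibitor of PERK, had 33.5 and 33.3 FPKM (0.994). DNAJC10, a disulfide reductase of the ER, had 72.4 and 67.7 FPKM (0.935), and DNAJC16 had the lowest ER ratio with 5.50 and 4.93 FPKM (0.896).

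ER genes outside the symbol rule were also divided. Of 34 genes for ER folding and ER-associated degradation above the minimum, 22 were higher and 12 lower, with a median ratio of 1.025, which turned to 0.9875 after quantile normalization. Past 1.2-fold were 7 of them (20.6%), beside 15.0% of all features, and 4 (11.8%) after quantile normalization, beside 16.0%. CRELD2 (27.3 and 41.2 FPKM, 1.51) and MANF (98.8 and 148 FPKM, 1.49), small secreted proteins that ER stress induces, had the highest ratios. SDF2L1, which works with DNAJB11, had 41.5 and 57.0 FPKM (1.37), and HYOU1, the Hsp110 of the ER, had 69.6 and 88.0 FPKM (1.27). The lectin chaperones were almost level, CANX with 297 and 300.4 FPKM (1.01) and CALR with 429 and 457 FPKM (1.07). ERO1L, the oxidase that makes disulfides and a known hypoxia target, had the lowest ratio (85.0 and 59.3 FPKM, 0.697).

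Of 13 sensors and factors of the unfolded protein response, 10 were higher and 3 lower, beside 52.6% higher among all features. Their median ratio was 1.088, beside 1.01 for all features. Past 1.2-fold were 3 of them (23.1%), beside 15.0% of all features, and 2 (15.4%) after quantile normalization, beside 16.0%. TRIB3 had the highest ratio (46.5 and 66.5 FPKM, 1.43) and SESN2 the lowest (10.3 and 8.79 FPKM, 0.857). XBP1 had 66.3 and 64.1 FPKM (0.967), ATF4 had 505 and 536 FPKM (1.06), and DDIT3 (CHOP) had 23.04 and 25.4 FPKM (1.102). The FPKM values are summed over a gene and do not tell spliced from unspliced XBP1.

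In the mitochondria, the chaperones of the matrix were higher at 50 cm. HSPD1 (Hsp60) had 442 and 596 FPKM (1.35) and its lid HSPE1 (Hsp10) had 279 and 353 FPKM (1.27). HSPD1 and HSPE1 are neighbours in the RefSeq table, and in mammals they share a promoter that drives both outward. The level of HSPD1 was 1.587 times that of HSPE1 at 2 cm and 1.687 times at 50 cm. HSPA9 (mortalin), the Hsp70 that pulls proteins into the matrix, had 132 and 166 FPKM (1.26). The mitochondrial J proteins varied more. DNAJA3 (TID1), the J protein of the matrix, had 24.8 and 29.0 FPKM (1.17), and DNAJC19, a part of the import motor, had 126 and 130 FPKM (1.03). DNAJC15, a relative of DNAJC19, had 34.3 and 31.7 FPKM (0.925), and DNAJC30 had 10.9 and 8.74 FPKM (0.803). Of the 8 mitochondrial members above the minimum, 6 were higher and 2 lower, with a median ratio of 1.131.

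Among 19 mitochondrial import, folding and protease genes outside the symbol rule, 13 were higher and 6 lower, beside 52.6% higher among all features. The median ratio was 1.113. Past 1.2-fold were 5 (26.3%), beside 15.0% of all features, and 3 (15.8%) after quantile normalization, beside 16.0%. The highest ratios were those of 3 import genes. TOMM40, the pore of the outer membrane, had 98.0 and 147 FPKM (1.503), TIMM44, which docks HSPA9 at the inner membrane, had 21.3 and 31.3 FPKM (1.47), and GRPEL1, the exchange factor of HSPA9, had 43.0 and 57.6 FPKM (1.34). The proteases LONP1 (59.7 and 49.4 FPKM, 0.827) and CLPP (42.2 and 37.3 FPKM, 0.885) lay on the other side of 1, whereas the protease AFG3L2 had 36.5 and 42.0 FPKM (1.15). TRAP1, the mitochondrial Hsp90, had 68.4 and 76.3 FPKM (1.12).

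The genes of the heat shock factors themselves had nearly equal levels in both cultures. HSF1 had 21.5 FPKM at 2 cm and 21.6 FPKM at 50 cm (1.005), and HSF2 had 5.44 and 5.62 FPKM (1.03). HSF1 is controlled mainly by its protein, which these values do not measure. Another list held 13 heat shock genes and HSF1 targets above the minimum, 4 of which also stand in the lists above. Of the 13, 10 were higher and 3 lower, beside 52.6% higher among all features, and the median ratio was 1.149. Past 1.2-fold were 4 (30.8%), beside 15.0% of all features, and 5 (38.5%) after quantile normalization, beside 16.0%. None passed 1.5-fold. The highest ratio was that of FKBP4 (1.37), given above with the co-chaperones, and the lowest that of HSBP1, which binds HSF1 (322 and 292 FPKM, 0.906). BAG3, an inducible partner of HSPB8, had 6.15 and 7.68 FPKM (1.248), SERPINH1 (Hsp47), the collagen chaperone, had 163 and 183 FPKM (1.12), and HMOX1 had 21.8 and 27.3 FPKM (1.251).

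**Figure D4:**
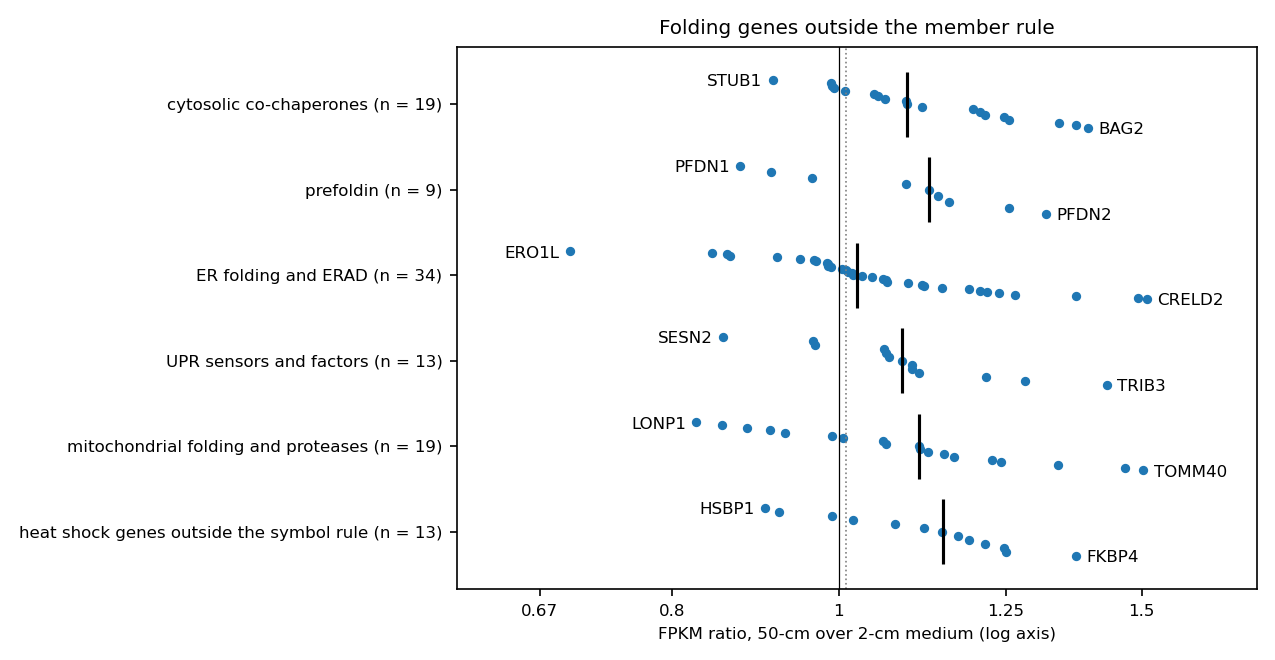
Ratio of 50-cm over 2-cm FPKM, on a log axis, for the genes of 6 lists outside the symbol rule, 1 point per gene above 1 FPKM in both cultures, with the median of each list as a black bar and the dotted line at the median of all features (1.01). The list medians lie between 1.025 for ER folding and degradation (0.9875 after quantile normalization) and 1.149 for heat shock genes, and the lowest and highest gene of each list is named.

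Between compartments, the cytosolic chaperones had the highest median ratio and the ER chaperones the lowest. The compartments also differ in their mix of families, and compartment and family were not separated. The 11 cytosolic J proteins above the minimum had a median ratio of 0.9993, with 5 higher and 6 lower. Of 33 cytosolic members above the minimum, 23 were higher and 10 lower, with a median ratio of 1.183, against 1.131 for 8 mitochondrial and 1.038 for 13 ER members. On the log2 scale the medians were 0.24, 0.18 and 0.05. Members placed elsewhere were left out of this comparison. Among them, 4 above the minimum that were given no compartment, DNAJC4 included, had a median ratio of 0.86, with 1 higher and 3 lower. With every member above 0 FPKM in both cultures included, the cytosolic median was 0.16 and the mitochondrial one 0.18, so the order of these compartments depended on the minimum. The 1.2-fold mark was passed by 13 cytosolic (39.4%), 3 mitochondrial (37.5%) and 2 ER members (15.4%), beside 15.0% of all features. After quantile normalization it was passed by 9 cytosolic (27.3%), 2 mitochondrial and 0 ER members, beside 16.0%. Summed over the members, the cytosolic chaperones came to 5441 FPKM at 2 cm and 6874 FPKM at 50 cm (1.263). The mitochondrial sum went from 1079 to 1348 FPKM (1.249) and the ER sum from 922 to 1028 FPKM (1.115), while the sum of all features above 1 FPKM had a ratio of 1.023. Without HSPA8, the cytosolic ratio of sums was 1.217, without HSPD1 the mitochondrial one was 1.181, and without HSP90B1 the ER one was 1.139.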

How the data were processed

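Per the labels and the study's methods, the authors prepared stranded mRNA libraries from 1 MDCK culture at each medium height, sequenced 75-base single-end reads and mapped them to the dog genome build CanFam3.1 (TopHat 2.0.13, SAMtools 0.1.19, Bowtie 2 2.2.3). The deposited FPKM values, 1 per gene and culture, come from Cuffnorm 2.2.1, and its scaling and the annotation are not given in the sources used here. FPKM at 50 cm was divided by FPKM at 2 cm, with no pseudocount, for every feature that exceeded 1 FPKM at both heights. No test was possible with 1 sample a group. Members were placed in compartments, and 6 further lists were written, from textbook knowledge. The members and lists were chosen with earlier results of these data known. The named genes are the members past 1.5-fold, the most abundant and most extreme ones of each compartment, the HSPA, HSPB, TRiC and Hsp90 genes, HSF1 and HSF2, and in each further list the genes past 1.5-fold or the extremes; other genes are named for context, after their values had been seen. In both deposited files, 1167 features stand out of alphabetical order, each with values that differ over 2-fold between the cultures, 5 members among them, and whether symbols and values kept together could not be checked. Of the 83 member symbols, 81 matched the RefSeq table. Sequences and positions are not given, and 1 gene of the further lists is not reported here. Scripts were tested on simulated data and ran under Python 3.11.15 with pandas 2.3.3, numpy 2.4.6 and matplotlib 3.10.9.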

Additional observations from a re-analysis of the deposited data

How the results depend on the processing

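A median or ratio of sums is called moved here when it shifted by over 0.05 on the log2 scale, and a count when it shifted by over 1.5 times. With FPKM above 0 in both cultures, 9 members were below 1/1.2, 2 above 1.5-fold, 5 below 1/1.5 and 3 below 1/2, and the cytosolic median log2 ratio was 0.16, below the mitochondrial 0.18. With FPKM above 0.1, these counts were 8, 2, 4 and 3. With FPKM above 5, they were 3 below 1/1.2 and 0 below 1/1.5 or 1/2, since DNAJC12 dropped out, and the ER median was 0.10. With FPKM above 1 in at least 1 culture, 3 members were below 1/1.5 and 3 below 1/2. Of the 2 genes of the outside lists past 1.5-fold, 0 stayed past it with a pseudocount of 1, after recentring on the median of all features or after quantile normalization. Quantile normalization left 11 members past 1.2-fold and gave medians of 0.17 for the cytosol, 0.12 for mitochondria, 0.11 for prefoldin, 0.13 for the heat shock genes outside the rule and 0.091 for mitochondrial folding and proteases, a ratio of sums of 0.27 for the cytosol, and turned the ER folding and degradation median to -0.018. Without the most abundant member the log2 ratio of sums was 0.28 for the cytosol and 0.24 for mitochondria, and without membrane-bound J proteins the ER median was 0.11. Nuclear members were never part of the cytosolic group. The cause of these shifts was not tested, except where fewer or other genes passed the minimum. The other 117 values stayed within these bounds, and of 92 values for 23 chosen single genes 21 moved and none changed sign. DNAJC19, not among these genes, turned lower at 50 cm after quantile normalization. No replicate could be left out, and no paired analysis was possible because each group has 1 sample. The depth is unknown, so no counting interval could be given.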
